A study of Mus musculus with 10 samples.

Results

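Integrins that do not depend on the RGD tripeptide of fibronectin were examined in differentiating C2C12 cells through the genes of their α subunits. The genes examined were the 9 whose products bind laminins, collagens or VCAM-1 and like ligands, without the leukocyte α subunits. These 9, *Itga1*, *Itga2*, *Itga3*, *Itga4*, *Itga6*, *Itga7*, *Itga9*, *Itga10* and *Itga11*, were found by their symbol among the 55359 genes of the deposited table, each under a single identifier. C2C12 is a mouse myoblast line whose cells stop dividing and fuse into myotubes in low serum. The cells of both groups carried an siRNA at 100 nM, a control siRNA in si-Control or an siRNA against *Fndc1* in si-*Fndc1*, and were differentiated for 4 days before polyA RNA-sequencing. The labels place 5 libraries in each group, 10 in all, without saying whether they came from separate cultures, so the p-values measure the spread between libraries, which may be technical. The study's methods speak of fewer libraries than the labels list, and do not say how these relate. The design text of the series instead places the harvest soon after transfection, whereas the labels and the study's methods give the differentiated stage.

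An integrin is a pair of an α and a β subunit that spans the cell membrane and holds the cytoskeleton to the matrix outside. The α subunit sets most of the ligand choice. α3, α6 and α7 pair with β1 to bind laminins, and α7β1 is the main laminin-binding integrin of the muscle fibre, where it runs in parallel to dystroglycan. α1, α2, α10 and α11 carry an inserted domain with which they bind collagens, and α4 and α9 bind VCAM-1, osteopontin, tenascin-C and related ligands without such a domain. Loss of α7 is a known cause of congenital muscular dystrophy.

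The promoters of the members whose transcripts fell are shown here, because factors of the MyoD and MEF2 families are known regulators of muscle genes. Promoters of 7 of the 9 members were matched by symbol in RefSeq (build GRCm38.p6), each reaching from 250 bases before the start site to 50 bases after it, and *Itga6* and *Itga7* were not matched. Capitals mark the E-box CANNTG, the motif of MyoD and myogenin, which reads alike on both strands, and the MEF2 motif, which was searched on both strands. Of these promoters, the upstream one of the pair listed for *Itga3* lies at chr11:95076665-95076964 (minus strand), that of *Itga10* at chr3:96645334-96645633 (plus strand) and that of *Itga11* at chr9:62677605-62677904 (plus strand).
Itga3: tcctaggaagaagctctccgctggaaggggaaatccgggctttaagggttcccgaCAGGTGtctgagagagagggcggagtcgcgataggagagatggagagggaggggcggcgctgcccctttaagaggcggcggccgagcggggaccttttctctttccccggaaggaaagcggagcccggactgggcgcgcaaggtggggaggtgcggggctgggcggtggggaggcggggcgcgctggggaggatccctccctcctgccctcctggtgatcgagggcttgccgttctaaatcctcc
Itga10: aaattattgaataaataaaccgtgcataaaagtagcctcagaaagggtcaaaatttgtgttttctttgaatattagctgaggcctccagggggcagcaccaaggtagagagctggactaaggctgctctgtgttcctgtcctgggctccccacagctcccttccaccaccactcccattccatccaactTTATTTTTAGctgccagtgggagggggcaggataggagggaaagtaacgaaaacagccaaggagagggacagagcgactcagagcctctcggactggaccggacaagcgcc
Itga11: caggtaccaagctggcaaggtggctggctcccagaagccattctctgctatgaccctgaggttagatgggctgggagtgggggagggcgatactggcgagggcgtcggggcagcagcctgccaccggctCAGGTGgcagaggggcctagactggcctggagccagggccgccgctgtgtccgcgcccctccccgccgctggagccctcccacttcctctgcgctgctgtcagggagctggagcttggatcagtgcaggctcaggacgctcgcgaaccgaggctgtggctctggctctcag
The *Itga10* promoter held a MEF2 motif that began 61 bases before the start site, and it held no E-box. The *Itga3* and *Itga11* promoters had 1 E-box each, 195 and 121 bases before the start site, in both cases as CAGGTG. An E-box is common, with 72.3% of the 32851 promoters of the table holding at least 1 against 6 of the 8 promoters listed for the members, while the MEF2 motif was found in 3.2% of them and in 1 of the 8. The marked motifs did not overlap each other, and binding at them was not measured.

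The libraries held 66771605 to 75995168 reads counted on genes in si-Control, against 56332844 to 72839369 in si-*Fndc1*. *Fndc1* itself had 26.7, 24.7, 28.7, 29.6 and 29.2 FPKM (reads scaled to transcript length and library size) in si-Control 1 to 5. In si-*Fndc1* 1 to 5 it had 20.4, 23.5, 20.8, 21.1 and 18.7 FPKM, all of them under the lowest control. The knockdown left 0.752 of the control mean (log2 fold change -0.40, standard error 0.07, edgeR quasi-likelihood test, adjusted p = 0.000934). Under an adjustment for the GC content and length of transcripts, described further on, the log2 fold change of *Fndc1* was smaller. It was then -0.21 (95% interval -0.32 to -0.10, edgeR, adjusted p = 0.0128). All 6 myogenic markers (*Myod1*, *Myog*, *Des*, *Myh3*, *Ckm* and *Mymk*) were expressed in both groups, summing to 1642.6 to 1826.7 FPKM in si-Control and 1542.1 to 1810.2 FPKM in si-*Fndc1*, and 3 of them (*Myod1*, *Ckm* and *Mymk*) were called higher in si-*Fndc1*, where 17.3% of all tested genes were. Under the GC and length adjustment *Mymk* was not called (0.21, edgeR, adjusted p = 0.0957). *Des* was then higher (0.11, edgeR, adjusted p = 0.0248) and *Myog* lower (-0.17, adjusted p = 0.0295). All 6 hepatocyte markers (*Alb*, *Apoa1*, *Apoa2*, *Ttr*, *Fgb* and *Ahsg*) were higher in si-*Fndc1*, with a sum of 0 to 4.68 FPKM in si-Control and 38.6 to 147.1 FPKM in si-*Fndc1*, and the part of these reads in the values of the members was not tested. Of the 4 endothelial markers *Cdh5* had no read in any library and the others (*Pecam1*, *Kdr* and *Tek*) lay below the level tested. Of the 4 leukocyte markers *Ptprc* and *Cd3e* had no read, and the other two (*Cd68* and *Csf1r*) brought the sum to at most 1.23 FPKM.

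The non-RGD α subunits were read at levels that differed by several orders of magnitude, with *Itga7* far above the rest. *Itga7* (ENSMUSG00000025348, chromosome 10 from 128769687 to 128794151, plus strand) averaged 188.6 ± 11 FPKM (SD, n = 5) in the control libraries, and over all libraries it ranked 205th among the 13548 tested genes. The other laminin-binding subunits were lower, with *Itga3* (ENSMUSG00000001507, chromosome 11 from 94935300 to 94967623, minus strand) at 19.7 ± 0.755 FPKM and *Itga6* (ENSMUSG00000027111, chromosome 2 from 71575960 to 71688760, plus strand) at 4.61 ± 0.360 FPKM (SD, n = 5 each, si-Control). The ratio of *Itga7* to *Itga3* spanned 9.09 to 10.5 over the control libraries, and 8.98 to 10.8 over those with si-*Fndc1*.

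Among the collagen-binding subunits the transcripts came almost only from *Itga10* and *Itga11*. *Itga10* (ENSMUSG00000090210, chromosome 3 from 96552900 to 96571829, plus strand), a subunit best known from cartilage, had 18.2 ± 1.07 FPKM (SD, n = 5) in si-Control. *Itga11* (ENSMUSG00000032243, chromosome 9 from 62585108 to 62691264, plus strand), a receptor for fibrillar collagen in mesenchymal cells, had 8.28 ± 0.517 FPKM (SD, n = 5). *Itga10* made up 66.7% to 70.0% of the collagen-binding α transcripts in si-Control, against 65.3% to 68.9% in si-*Fndc1*, ranges that overlapped.

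*Itga1* and *Itga2*, the other collagen receptors, lay below the filter of 0.5 FPKM, with *Itga1* read in every library and *Itga2* in only some. *Itga1* (ENSMUSG00000042284, chromosome 13 from 115089632 to 115238500, minus strand) had 97 to 133 reads per library in si-Control, against 87 to 137 in si-*Fndc1*, which is 0.0645 to 0.0897 and 0.0572 to 0.0920 FPKM. *Pelo*, a gene of the same strand at 6.38 FPKM, lies wholly within *Itga1* in the table, over 1832 bases, and how reads there were assigned is not stated. Likewise *Gm10157*, at 4.54 FPKM, overlaps *Itga9* by 343 bases on the other strand. *Itga2* (ENSMUSG00000015533, chromosome 13 from 114969617 to 115068636, minus strand) had no read in 6 of the 10 libraries and at most 11 in the others.

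Of the VCAM-type subunits, *Itga4* was low and *Itga9* was almost unread. *Itga4* (ENSMUSG00000027009, chromosome 2 from 79085770 to 79163467, plus strand), whose product takes part in the contact of myoblasts with VCAM-1 on other cells, had 1.86 ± 0.187 FPKM (SD, n = 5) in si-Control. *Itga9* (ENSMUSG00000039115, chromosome 9 from 118435758 to 118730071, plus strand) had 0 to 6 reads per library in si-Control, against 0 to 19 in si-*Fndc1*. At this depth a count of 0 allows up to 3 reads, so the levels of *Itga2* and *Itga9* could not be compared between the groups.

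**Figure D1:**
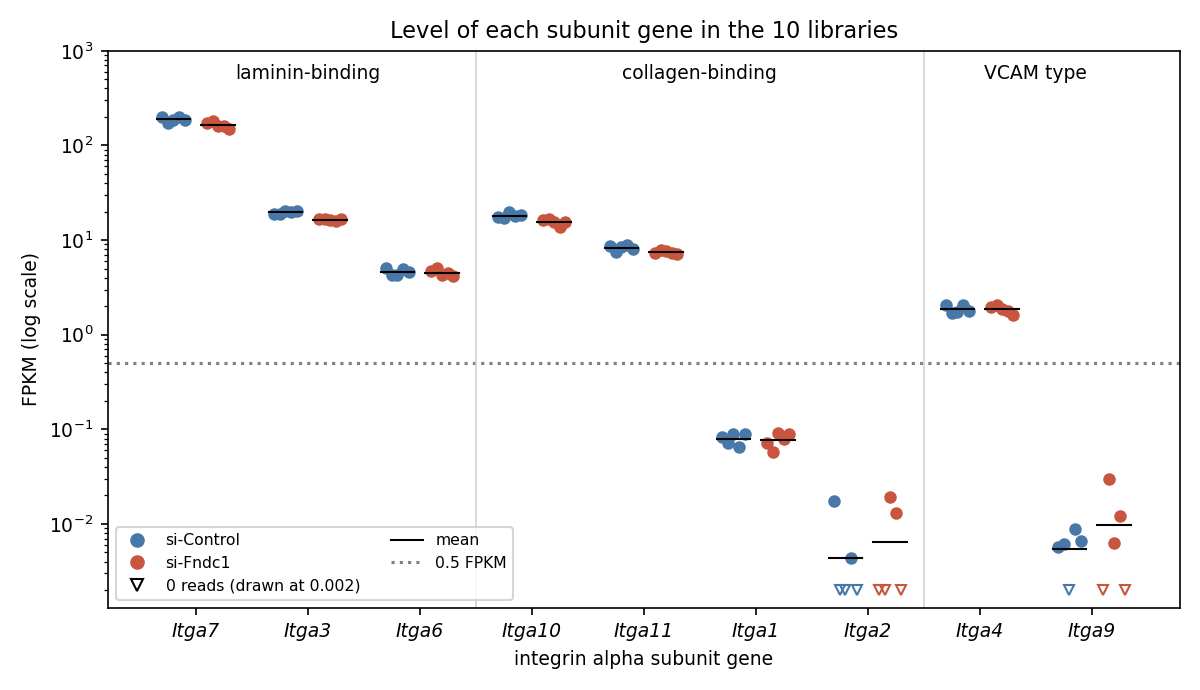
Level of each of the 9 α subunit genes as FPKM on a log scale, with 1 point per library (si-Control blue, si-*Fndc1* red), a black line at the group mean, open triangles for libraries with 0 reads and a dotted line at the 0.5 FPKM used as the filter. *Itga7* stands near 188.6 FPKM in si-Control, 5 further genes lie above the filter, and *Itga1*, *Itga2* and *Itga9* lie below it.

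The order of the α subunits in si-Control, with the RGD-binding ones set between them, was *Itga7*, *Itga5*, *Itga3*, *Itga10*, *Itgav*, *Itga11*, *Itga6*, *Itga4*, *Itga2b*, *Itga1*, *Itga8*, *Itga9* and *Itga2*. In si-*Fndc1* the order was the same except that *Itga11* stood above *Itgav*. That difference rests on si-Control 3 and 4, where *Itgav* had 13.6 and 14.5 FPKM, since in the other 3 controls it had 6.75 to 7.20 FPKM and lay below *Itga11*. The ranges of *Itga3* (18.7 to 20.5 FPKM) and *Itga10* (16.9 to 19.7 FPKM) overlapped in si-Control, and so did those in si-*Fndc1*, although *Itga3* was the higher of the pair in all 10 libraries. The ranges also overlapped between *Itgav* and *Itga11* in si-Control. In both groups they overlapped between *Itga8* and *Itga9* and between *Itga9* and *Itga2*. *Itga8* was nevertheless above *Itga9* in 5 of 5 si-Control and 4 of 5 si-*Fndc1* libraries. *Itga5*, the α subunit of the fibronectin receptor, lay between, and *Itga7* was 2.92 to 3.42 times as high in si-Control and 3.06 to 3.37 times as high in si-*Fndc1*.

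Summed over all 13 of these α subunits, laminin-binding ones made up 66.6% to 70.3% of the FPKM in si-Control, against 68.2% to 69.9% in si-*Fndc1*, most of it *Itga7* (58.9% to 62.7% and 59.9% to 62.3%). Collagen-binding subunits made up 8.24% to 8.86% and 8.17% to 9.06%. The VCAM-type share, nearly all of it *Itga4*, spanned 0.543% to 0.657% with si-Control, and 0.648% to 0.720% with si-*Fndc1*, where 4 of the 5 libraries lay above all controls. The level of *Itga4* itself was alike, with means of 1.86 FPKM in si-Control and 1.85 FPKM in si-*Fndc1*, while the sum below the share was lower. The laminin-binding and collagen-binding shares differed between the groups by less than the spread between libraries. The sum of all 13 went from 311.2 ± 15.5 to 267.5 ± 15.0 FPKM (SD, n = 5 each). Its ranges overlapped slightly, with 287.1 to 327.4 FPKM in si-Control and 249.6 to 288.1 FPKM in si-*Fndc1*. None of these shares or sums was adjusted for the GC content and length of transcripts.

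**Figure D2:**
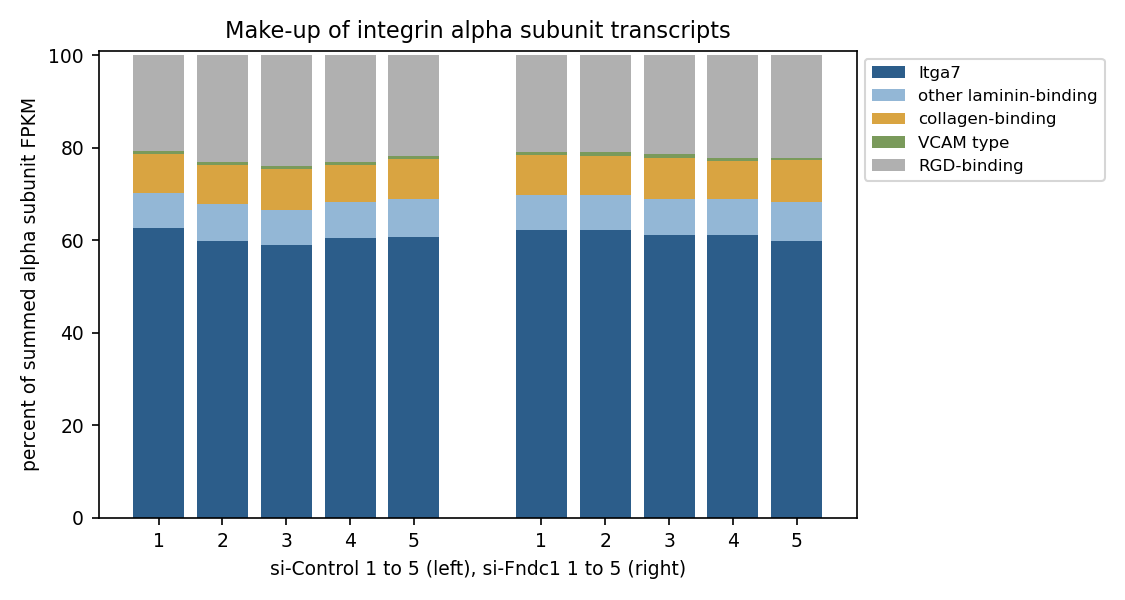
Share of summed α subunit FPKM (percent, bars from 0) in each library, split into *Itga7*, the other laminin-binding, the collagen-binding, the VCAM-type and the RGD-binding subunits, with si-Control replicates on the left and si-*Fndc1* replicates on the right. *Itga7* takes 58.9% to 62.7% over the si-Control libraries and 59.9% to 62.3% over the si-*Fndc1* libraries.

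The comparison of si-*Fndc1* with si-Control asked which of these receptors change when *Fndc1* is reduced. Of the 9 members 6 passed the filter of a mean of at least 0.5 FPKM, and 4 of these fell in si-*Fndc1* (*Itga3*, *Itga7*, *Itga10* and *Itga11*) while none rose and 2 (*Itga4* and *Itga6*) were not called (edgeR quasi-likelihood test, Benjamini-Hochberg adjusted p under 0.05). Among all tested genes 34.4% were called, with 17.2% of all tested genes called lower and 17.3% called higher. The median log2 fold change of the 6 members was -0.17, against 0.00 over all tested genes. The falls were small, between -0.26 and -0.15 on the log2 scale. After the counts of each library had been adjusted for the GC content and the length of the transcripts, 0 of the 6 members were called, against 22.5% of all genes in that fit.

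*Itga3* showed the clearest difference. Its levels were 19.0, 18.7, 20.1, 20.0 and 20.5 FPKM in si-Control 1 to 5 and 16.5, 16.6, 16.2, 15.9 and 16.6 FPKM in si-*Fndc1* 1 to 5. The groups were well apart, with si-*Fndc1* the lower, and the spread within si-*Fndc1* was narrow. The log2 fold change was -0.26 (standard error 0.03, 95% interval -0.32 to -0.19, edgeR, adjusted p = 0.000165), and the call held with each library left out in turn (adjusted p from 0.000171 to 0.000774). The GC and length adjustment brought it to -0.02 (95% interval -0.08 to 0.04, edgeR, adjusted p = 0.575).

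*Itga7*, the α subunit gene of a muscle laminin receptor, had 198.9, 171.9, 187.5, 198.3 and 186.2 FPKM in si-Control 1 to 5. In si-*Fndc1* 1 to 5 it had 172.2, 179.6, 160.2, 159.8 and 149.5 FPKM. The groups overlapped through the low si-Control 2 and the high si-*Fndc1* 1 and 2, while the other 3 si-*Fndc1* libraries lay below all controls. The log2 fold change was -0.19 (standard error 0.06, 95% interval -0.32 to -0.07, edgeR, adjusted p = 0.0228). The adjusted p rose above 0.05 without si-Control replicate 1 or 4 (0.0555 and 0.0551) and without si-*Fndc1* replicate 3 or 4 (0.0509 and 0.0527). Under the GC and length adjustment the sign turned, to 0.08 (adjusted p = 0.154).

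*Itga6*, the third laminin-binding subunit, did not follow. It had 5.03, 4.24, 4.26, 4.91 and 4.62 FPKM in si-Control and 4.68, 5.07, 4.27, 4.44 and 4.17 FPKM in si-*Fndc1*, replicates 1 to 5 in each. The groups overlapped over nearly their whole range, and the log2 fold change was -0.02 (95% interval -0.17 to 0.13, edgeR, adjusted p = 0.852). A change of up to about the size seen for *Itga11* therefore lies within the interval. Splice forms of *Itga6* and *Itga7*, which differ in their cytoplasmic tails, were not analysed here.

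Both expressed collagen receptors fell. *Itga10* had 17.6, 16.9, 19.7, 18.1 and 18.5 FPKM in si-Control 1 to 5 and 16.3, 16.6, 15.5, 13.9 and 15.5 FPKM in si-*Fndc1* 1 to 5. No si-*Fndc1* library reached the controls, with a narrow gap between si-*Fndc1* 2 and si-Control 2. The log2 fold change was -0.22 (standard error 0.05, 95% interval -0.33 to -0.10, edgeR, adjusted p = 0.00986) and the call held with each library left out in turn (adjusted p from 0.0071 to 0.0244). After the GC and length adjustment it was -0.10 (edgeR, adjusted p = 0.159), the most negative fold change among the 6 members.

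*Itga11* had 8.67, 7.49, 8.39, 8.76 and 8.07 FPKM in si-Control 1 to 5 and 7.30, 7.78, 7.72, 7.32 and 7.06 FPKM in si-*Fndc1* 1 to 5. Only the low si-Control 2 overlapped with si-*Fndc1*, and the log2 fold change was -0.15 (standard error 0.05, 95% interval -0.26 to -0.03, edgeR, adjusted p = 0.0491). This call was the least stable, since it was lost in 8 of the 10 fits that left out a library (all but those without si-Control replicate 2 or si-*Fndc1* replicate 2, adjusted p up to 0.113). The adjustment for GC and length left 0.02 (edgeR, adjusted p = 0.845). *Itga1*, below the filter, had a log2 fold change of -0.03 in the fit without a filter (95% interval -0.41 to 0.35, edgeR, adjusted p = 0.943).

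*Itga4* had 2.08, 1.68, 1.73, 2.05 and 1.78 FPKM in si-Control 1 to 5 and 1.95, 2.05, 1.85, 1.80 and 1.62 FPKM in si-*Fndc1* 1 to 5. The groups overlapped, and the log2 fold change was -0.00 (95% interval -0.18 to 0.18, edgeR, adjusted p = 0.996). Of the 6 tested members, 2 had groups that did not overlap, *Itga3* and *Itga10*. Among all tested genes the si-*Fndc1* libraries lay wholly under the controls for 13.0%. In a bulk culture fewer expressing cells and less transcript per cell cannot be told apart.

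**Figure D3:**
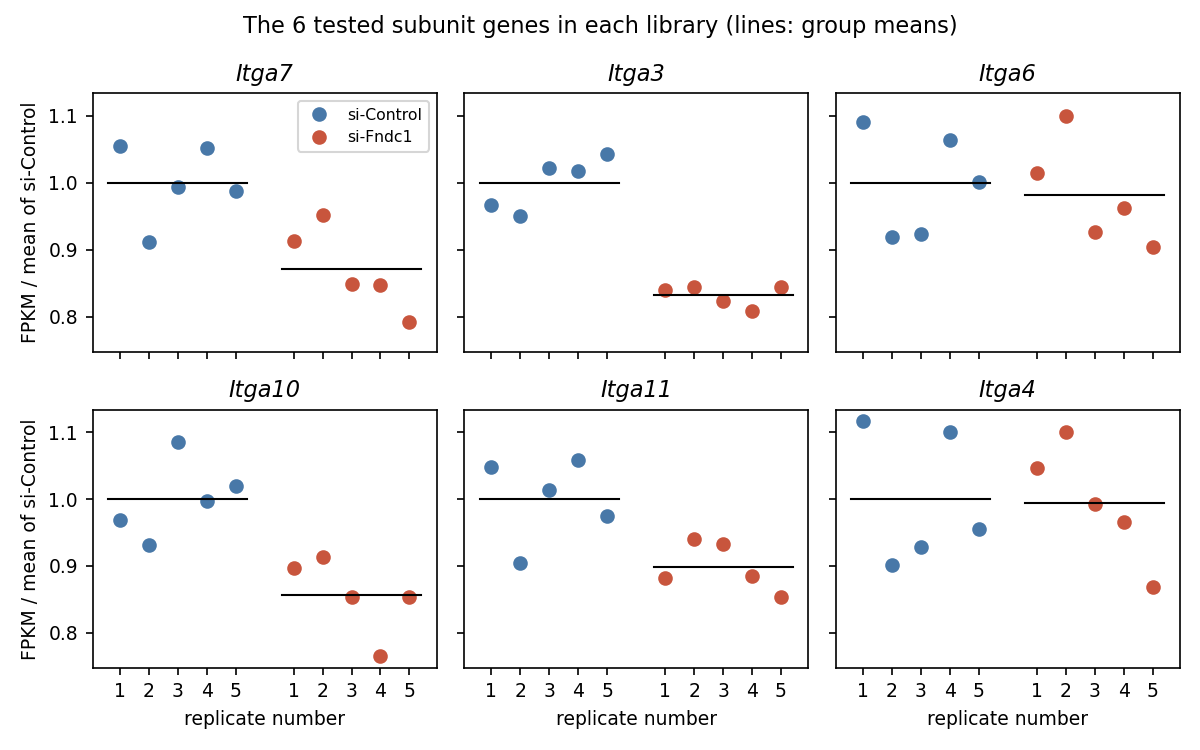
FPKM of the 6 tested members in each library divided by the mean of the 5 si-Control libraries, with si-Control replicates 1 to 5 in blue, si-*Fndc1* replicates 1 to 5 in red and lines at the group means. *Itga3* and *Itga10* separate the groups, whereas *Itga6* and *Itga4* overlap widely and are highest in si-Control 1 and 4 and in si-*Fndc1* 2.

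Within a group, several members shared an order over the libraries. *Itga7*, *Itga6*, *Itga4* and *Itga11* had their highest si-Control levels in replicates 1 and 4 and their lowest in replicate 2. In si-*Fndc1* they were highest in replicate 2 and lowest in replicate 5. Read totals were also highest in si-Control 1 and 4 and in si-*Fndc1* 2, and lowest in si-*Fndc1* 5. The lowest control total, however, was that of replicate 5. The part of depth in this order was not tested. *Itga3* did not share this order, with its highest si-Control level in replicate 5 and levels within 15.9 to 16.6 FPKM in si-*Fndc1*. As a measure of likeness, the Pearson correlation of log2 CPM over the 10 libraries was taken against every tested gene. The genes nearest to *Itga7* were *Pbxip1* (r = 0.984, 79.9 FPKM) and *Smarcc1* (r = 0.984, 14.5 FPKM), a subunit of the BAF chromatin remodelling complex. Those nearest to *Itga10* were *Plekhg2* (r = 0.962) and *Ankrd52* (r = 0.961). Those nearest to *Itga4* were *Rbm24* (r = 0.948), a splicing regulator of muscle, and *Myh2* (r = 0.938), the myosin heavy chain of fast oxidative fibres. After the group means were taken out, these values lay between 0.901 and 0.964. The libraries share their group and depth in all such pairs, and the genes were selected as the highest of 13548, so the values are a description and carry no test.

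The members that fell had GC-rich transcripts. The GC content of the longest annotated transcript was 57.9% for *Itga3*, 57.6% for *Itga7*, 55.5% for *Itga11* and 53.8% for *Itga10*, and it was 48.9% for *Itga6* and 41.3% for *Itga4*. Over the 11185 tested genes with a GC content, whose median was 50.5%, the log2 fold change was lower at higher GC content, with a Spearman correlation of -0.523. This correlation is over genes, which do not stand for replicates. It was -0.006 once the counts were adjusted, a value that follows from the adjustment itself, which takes out this trend. GC content and a change caused by the siRNA cannot be told apart gene by gene from these libraries, as the trend runs along the groups.

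**Figure D4:**
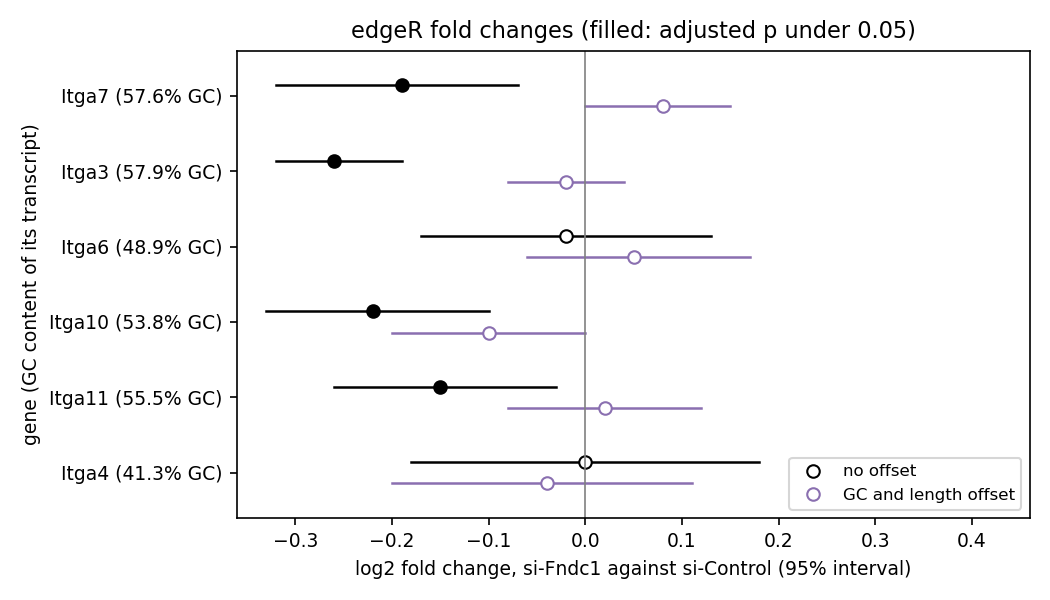
Log2 fold change of si-*Fndc1* against si-Control from edgeR with its 95% interval for the 6 tested members, without (black) and with (violet) the adjustment for GC content and transcript length, with filled points where the adjusted p was under 0.05. The 4 filled points lie between -0.26 and -0.15, and no violet point is filled.

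The β subunits that pair with these α subunits were read next. *Itgb1*, the shared partner, moved the other way, from 278.4, 283.7, 314.6, 279.2 and 279.5 FPKM in si-Control 1 to 5 to 375.5, 311.3, 318.4, 321.9 and 320.1 FPKM in si-*Fndc1* 1 to 5. Only si-*Fndc1* 2 fell within the range of the controls (log2 fold change 0.21, standard error 0.05, edgeR, adjusted p = 0.0139), and with the GC and length adjustment it was 0.08 (adjusted p = 0.352). The summed FPKM of the 13 α subunits per FPKM of *Itgb1* therefore lay at 1.01 to 1.17 in the controls, above the 0.737 to 0.926 of si-*Fndc1*. Both parts of this ratio are FPKM without the GC and length adjustment, and an adjusted ratio was not computed. Transcript GC content was 44.8% for *Itgb1* and 57.6% for *Itga7*, the largest part of the sum. *Itgb4*, which pairs with α6 in hemidesmosomes, was at 0.257 ± 0.0355 FPKM in si-Control and 0.218 ± 0.0904 FPKM in si-*Fndc1* (SD, n = 5 each), below the filter. *Itgb7*, which pairs with α4 on lymphocytes, was at no more than 0.0988 FPKM in any library. The integrin subunits of leukocytes (*Itgal*, *Itgam*, *Itgax*, *Itgad*, *Itgae* and *Itgb2*) summed to at most 1.10 FPKM.

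Most chains of the laminins that the α3, α6 and α7 integrins bind also fell. Of 11 laminin chain genes 8 were tested, of which 6 fell, none rose and 2 were not called (edgeR, median log2 fold change -0.21). Over all tested genes 17.2% were called lower and 17.3% higher. *Lama5*, a laminin α chain of many basement membranes, went from 39.1 ± 2.04 to 29.5 ± 1.82 FPKM (SD, n = 5 each), a log2 fold change of -0.40 (standard error 0.05, edgeR, adjusted p = 0.000183). *Lamb2*, the β chain of the synaptic laminins, had a log2 fold change of -0.31 (standard error 0.04) and *Lamb3*, a chain of an epithelial laminin, one of -0.32 (standard error 0.05). Under the GC and length adjustment 0 of the 8 chains were called, against 22.5% of all genes in that fit. *Lama5* was then at -0.03 (edgeR, adjusted p = 0.492).

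Most of the collagen chains fell too, with 11 of 12 tested, 9 that fell, none that rose and 2 not called (edgeR, median log2 fold change -0.21). The share called lower over all tested genes was 17.2%. *Col1a1* and *Col1a2*, which form type I collagen, had log2 fold changes of -0.78 (standard error 0.04) and -0.35 (standard error 0.04), and *Col5a1*, which forms type V collagen, one of -0.38 (standard error 0.03). With the GC and length adjustment 4 of the 11 chains were called, 2 lower and 2 higher, where 22.5% of all genes in that fit were called. *Col1a1* stayed lower at -0.51 (edgeR, adjusted p = 1.88e-05) and *Col5a1* at -0.09 (adjusted p = 0.0166). *Col4a1* and *Col4a2*, the collagen IV chains of basement membrane, named after their values were seen, were at -0.03 each without the adjustment and higher at 0.23 and 0.28 with it.

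Of the 7 ligands of the α4 and α9 integrins 6 were tested, of which 3 fell, 1 rose and 2 were not called (edgeR, median log2 fold change -0.18). The shares over all tested genes were 17.2% lower and 17.3% higher. *Madcam1* had no read in any library. *Spp1*, which encodes osteopontin, had 233.2 to 285.9 FPKM in si-Control and 364.9 to 421.1 FPKM in si-*Fndc1* and was the gene that rose (log2 fold change 0.65, standard error 0.06). *Tnc*, tenascin-C, fell by 0.23 (standard error 0.03) and *Emilin1*, an elastic fibre protein, by 0.35 (standard error 0.07) on the log2 scale. *Spp1* was still higher with the GC and length adjustment (0.33, edgeR, adjusted p = 0.00249). *Fn1*, which encodes fibronectin, changed direction. It was called lower without the adjustment (-0.14, edgeR, adjusted p = 0.0216) and higher with it (0.08, adjusted p = 0.046). *Spp1* and *Fn1* were the 2 calls with the adjustment, in a fit that called 22.5% of all its genes. *Vcam1*, named like *Fn1* and *Madcam1* after its values were seen, had 4.44 to 5.08 FPKM in si-Control and 4.27 to 5.34 FPKM in si-*Fndc1*, and its log2 fold change was -0.01 (edgeR, adjusted p = 0.947).

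The 16 genes for proteins that process, bind or activate these integrins were all tested, and 4 rose, 4 fell and 8 were not called (edgeR, median log2 fold change 0.01). Over all tested genes 34.4% were called, 17.3% higher and 17.2% lower. *Itgb1bp2*, which encodes melusin, a muscle protein that binds the tail of β1, rose from 23.9 ± 0.419 to 34.9 ± 1.93 FPKM (SD, n = 5 each), a log2 fold change of 0.56 (standard error 0.04, edgeR, adjusted p = 1.21e-05). *Cd9*, a tetraspanin that associates with integrins, rose by 0.34 (standard error 0.04), and *Tln2*, the talin of mature muscle attachments, fell by 0.30 (standard error 0.04). After the GC and length adjustment 4 were higher and 1 lower, where 22.5% of all genes in that fit were called. *Itgb1bp2* kept its rise at 0.44 (adjusted p = 0.000143) and *Cd9* at 0.12 (adjusted p = 0.015), whereas *Tln2* was at -0.01 (adjusted p = 0.813). The gene lower in both fits was *Cd151*, the tetraspanin that binds the laminin-binding integrins, at -0.31 and -0.26 (adjusted p = 0.0043 and 0.0125), and was named after its values were seen.

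**Figure D5:**
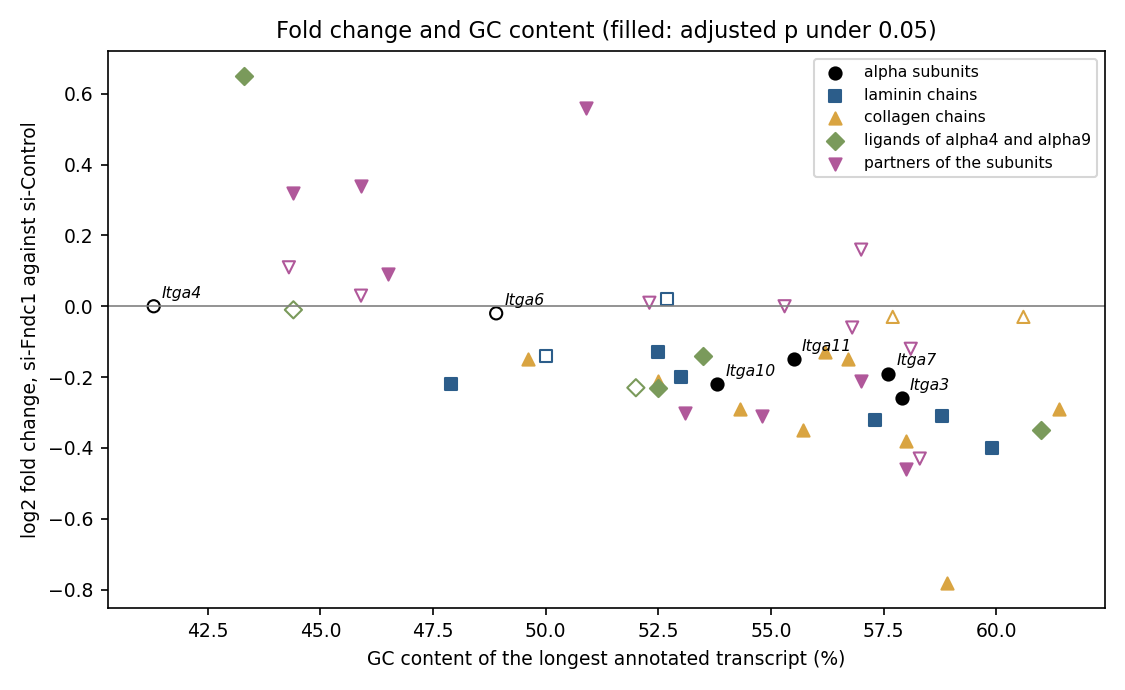
Log2 fold change of si-*Fndc1* against si-Control (edgeR, no adjustment) plotted against the GC content of the longest annotated transcript for the tested α subunits, their laminin, collagen and other ligands and their partners, with filled symbols where the adjusted p was under 0.05. The 4 α subunits that fell lie at 53.8% to 57.9% GC among the matrix genes that fell, and *Itga4* and *Itga6* lie at lower GC content near 0.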

How the data were processed

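RNA-sequencing of 10 libraries of C2C12 cells was analysed, with groups and replicate numbers taken from the labels and 0 columns of values left without a sample. The authors deposited raw counts per gene and, beside them, FPKM values, with a constant in place of FPKM where no read was counted, which was set to 0 here. The study's methods speak of fewer libraries than the labels, and all 10 were used. The methods name TopHat, mm10 and htseq-count, the design text of the series STAR and mm9, and the submitters' processing notes cutadapt 1.9, FastQC and GRCm39. Whether counting used the strand, and how FPKM was computed, is not given in the sources used here. Gene coordinates are as the table lists them.

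The deposited counts, scaled by TMM, entered the quasi-likelihood test of edgeR 4.0.16 in R 4.3.3 for the 13548 genes with a mean of at least 0.5 FPKM, without a replicate term, with Benjamini-Hochberg adjustment over all tested genes. Standard errors are the fold change divided by the square root of F. Alternatives were DESeq2 1.42.0, other size factors and filters, limma 3.58.1 on log2 of FPKM plus a pseudocount, each library left out, the replicate number as a block, and an offset for the within-library trend of log counts (0.5 added) with GC content and transcript length (splines of 5 degrees of freedom, robust regression) for the 11185 tested genes (82.6%) with both values. GC content came from NCBIM37 transcripts matched by identifier, and length from the ratio of the authors' count and FPKM. The length so obtained was, as a median over these genes, 1.52 times that of the transcript used for GC content. The main fit and the offset were also run on counts simulated with the dispersions of the main fit, and the outcome is not given here.

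The members, the gene lists and the tests were chosen with earlier results of these data known. Genes named are the members, their β partners, *Fndc1*, the 3 genes with the smallest p-values of each list of ligands or partners, the 2 genes most like the most abundant member of each ligand class, the markers, and the RGD-binding α subunits in the order of levels. *Col4a1*, *Col4a2*, *Cd151*, *Fn1*, *Vcam1*, *Madcam1* and the genes that overlap members were named after their values were seen.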

Additional observations from a re-analysis of the deposited data

Results flagged for a closer look

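For a part of the genes named, 50 groups of 5 FPKM values were examined. Of these, 5 held a library whose gap to the nearest other passed the critical value of Dixon's test for 5 values. Chance gives about 1 in 20 groups. *Itgb1*, the β partner of the members, was 314.6 FPKM in si-Control 3 against 278.4 to 283.7 FPKM in the other controls. It was 375.5 FPKM in si-*Fndc1* 1 against 311.3 to 321.9 FPKM in the other si-*Fndc1* libraries. *Itgb1bp2* was also highest in si-*Fndc1* 1, at 38.3 FPKM against 33.5 to 34.8 FPKM. *Tln2* was 6.26 FPKM in si-Control 2 against 6.59 to 6.69 FPKM in the others. *Itga2* was 0.0176 FPKM in si-Control 1, from 11 reads, against 0 to 0.00435 FPKM. No tested member had such a library.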

How the results depend on the processing

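The number of members called, 4 in the edgeR fit, was 2 with the replicate number as a block, 2 to 4 with each library left out in turn, and 0 with the GC and length offset or with that offset and the replicate block. The 2 calls that the block kept were *Itga3* and *Itga10*. Same-numbered libraries did not deviate together (correlations from -0.0553 to 0.0643), so the numbers were not taken as pairs. With the GC and length offset, and also with the block added, the laminin chains had 0 calls and 0 calls in place of 6, the collagen chains 4 and 4 in place of 9, the α4 and α9 ligands 2 and 2 in place of 4, the partners 5 and 3 in place of 8, and all genes 2517 and 1651 in place of 4663. The sign turned with the offset, with and without the block, for *Itga7* (0.08 and 0.08) and *Itga11* (0.02 and 0.02), the latter also uncalled with upper-quartile factors (-0.13, edgeR adjusted p = 0.0702) or no filter (-0.15, adjusted p = 0.101). The log2 fold change of *Itga3* ran from -0.27 to -0.02 and that of *Itga10* from -0.24 to -0.10 over their 21 alternatives, with calls lost only under the offset. *Fndc1* was called in all 21, with a log2 fold change from -0.45 to -0.21, the smallest change under the offset. With each library left out, the calls ran from 5 to 7 for laminin chains, 3 to 5 for the α4 and α9 ligands, 7 to 9 for the partners and 4000 to 4627 for all genes. The cause of the change under the offset was not tested. *Itga1*, *Itga2* and *Itga9* lay below the mean FPKM asked for by the filter.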
